A study of Mus musculus with 9 samples.

Results

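The chaperone and heat-shock genes were examined in invariant natural killer T cells of the iNKT1 kind from mouse thymus, liver and spleen. Members were taken by symbol alone: every gene whose name begins with Hspa, Hspb, Hspd, Hspe, Hsph, Hsp90, Dnaja, Dnajb or Dnajc, or with Bag or Cct followed by a digit, together with Tcp1 and Hsf1. The rule gave 79 members among the 14004 genes of the deposited table. They comprised 25 DNAJC, 11 DNAJB and 4 DNAJA genes, 10 genes of the HSP70 and HSP110 family, 8 subunits of the CCT chaperonin, 6 BAG genes, 6 genes of the mitochondrial HSP60 and HSP10 chaperonin with their pseudogenes, 5 genes with the Hspb prefix, 3 HSP90 genes and Hsf1. Of these, 4 were pseudogenes (Hspd1-ps3, Hspe1-ps2, Hspe1-ps3 and Hspe1-ps5). The Hspb prefix does not by itself mark a small heat-shock protein: Hspbp1 and Hspbap1, for example, are not. A further 27 symbols fit the rule but had no expression values analysed here, 11 of them pseudogenes. Hspb1, Hspb8, Hspa2 and Hspa14 are among the other 16.

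Chaperones bind unfolded or partly folded proteins and let them fold, assemble or be handed to the proteasome. HSP70 proteins work in cycles of ATP hydrolysis that J proteins (DNAJA, DNAJB, DNAJC) start and that HSP110 and BAG proteins end by exchanging the nucleotide; HSP90 finishes kinases and steroid receptors, and the CCT ring folds actin and tubulin. Most are made at all times, whereas a smaller set is switched on when the transcription factor HSF1 is released by misfolded protein and binds heat-shock elements, and the chaperones of the endoplasmic reticulum (ER) are raised by ATF6 and XBP1 through ER stress elements. Lymphocytes that enlarge and secrete cytokines rely on both systems.

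The 9 libraries came from 3 thymus, 3 liver and 3 spleen samples of C57BL/6 mice of genotype Tbx21CreTg;Rosa26-LSL-YFP+/+ with no treatment, so all groups carry the same Cre transgene and reporter, and the labels give no difference between them other than tissue. The Cre is driven by Tbx21, which encodes T-bet, the factor that defines iNKT1 cells, so YFP marks cells that have expressed it at any time. The series text calls the replicates independent; the age of the mice, pooling and the sorting steps are not given in the sources used here, and p-values measure the spread between these samples. Values are normalised read counts as deposited, given below in the order of replicates 1, 2 and 3, and reads are whole reads recovered from the equal steps between those values.

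Recovered depth ran from 18492769 to 39535251 reads in 8 libraries and was 3880866 in liver replicate 3. Genes with a read ranged from 10476 in thymus replicate 1 to 13038 in liver replicate 2, and members with a read from 63 of 79 in thymus replicate 1 to 76 in spleen replicate 2. T-cell identity was present throughout: Cd3e ranged from 25652 to 46800, Tbx21 from 1386 to 5762 and Zbtb16, which encodes PLZF, from 1216 to 3305. The 3 libraries numbered 2 had Xist at 84543 to 107736 and 6 to 21 Y-linked reads. Thymus replicate 3 had both, with Xist at 16531 and 7012 Y-linked reads. The other 5 had Xist at 1.14 to 125 and 1460 to 17111 Y-linked reads. These sex-linked transcripts thus differed among replicates within each tissue, and the labels give no sex. The column of thymus replicate 2 is headed WTf rather than WT, and the meaning of the added letter is not given. Summed markers of other cells also differed: hepatocyte genes (7 of 8 listed had a row) summed to 1355 to 1737 in liver, of which Alb was 1172 to 1588, to 0.136 to 269.6 in thymus and to 0 to 14.1 in spleen, where replicates 2 and 3 were at 0. B-cell markers summed to 0.105 to 16.5 in thymus, 1.69 to 747 in liver and 0.63 to 2320.1 in spleen, and myeloid markers to 10.6 to 315, 25.6 to 1298 and 56.3 to 3039.9, spleen replicate 1 being highest for both. Of the immature thymocyte markers, Rag1 had 486 in thymus replicate 3 and at most 0.815 in the other 8 libraries, Dntt had 11.3 in thymus replicate 3 and at most 0.631 elsewhere, Cd8b1 ranged from 0 to 40.9 with liver replicate 1 highest, and Cd4, which iNKT cells can also express, from 985 to 10054. Their part in the results below was not tested. In bulk samples, fewer cells of a type and less RNA per cell cannot be told apart.

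Promoter sequences are given first because heat-shock and ER stress elements are the control elements named above. The lists of stress-inducible, constitutive and ER genes were drawn from general knowledge, not from these matches. RefSeq windows on GRCm38.p6, from 250 bases before to 50 bases after the transcription start, were found for 61 of the 79 members. A heat-shock element was searched for as 3 alternating 5-base units, GAANNTTCNNGAA or, on the other strand, TTCNNGAANNTTC. It was present in 4 of the 61 members (6.56%), Dnajb6, Hspd1, Hspe1 and Hsph1, and in 179 of 27025 genes with a window (0.662%). The ER stress element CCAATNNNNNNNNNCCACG, or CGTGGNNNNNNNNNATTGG on the other strand, was present in 3 members (4.92%), Dnajc3, Hsp90b1 and Hspa5, and in 37 of all genes (0.137%). The 2 motifs do not overlap in these windows. Hspe1 and Hspd1 are divergent genes whose windows share 285 bases on chromosome 1, so 1 of the pair is printed; the motif matches are in capitals, 2 overlapping ones in Hspe1 and 2 separate ones in Hsp90b1, and each window is written 5′ to 3′ on the strand of its gene:
Hspe1, chr1:55087898-55088197, plus strand: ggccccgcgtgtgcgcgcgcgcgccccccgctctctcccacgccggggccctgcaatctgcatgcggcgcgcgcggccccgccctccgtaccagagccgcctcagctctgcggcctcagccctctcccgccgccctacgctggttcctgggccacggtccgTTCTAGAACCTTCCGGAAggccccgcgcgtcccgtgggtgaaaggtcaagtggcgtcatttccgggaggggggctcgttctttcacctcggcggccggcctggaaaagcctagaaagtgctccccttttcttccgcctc
Hsph1, chr5:149636287-149636586, minus strand: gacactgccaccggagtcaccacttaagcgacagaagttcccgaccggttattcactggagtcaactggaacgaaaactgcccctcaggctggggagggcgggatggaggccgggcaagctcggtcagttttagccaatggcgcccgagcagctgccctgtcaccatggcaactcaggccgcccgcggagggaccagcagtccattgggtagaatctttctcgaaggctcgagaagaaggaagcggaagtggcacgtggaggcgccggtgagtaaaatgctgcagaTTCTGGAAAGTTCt
Dnajb6, chr5:29735648-29735947, plus strand: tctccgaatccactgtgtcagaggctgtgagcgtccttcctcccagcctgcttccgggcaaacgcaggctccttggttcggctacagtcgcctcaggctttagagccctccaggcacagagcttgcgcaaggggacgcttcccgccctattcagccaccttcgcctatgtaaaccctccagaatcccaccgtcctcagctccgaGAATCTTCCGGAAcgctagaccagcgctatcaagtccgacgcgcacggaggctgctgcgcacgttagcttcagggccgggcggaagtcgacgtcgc
Hspa5, chr2:34771840-34772139, plus strand: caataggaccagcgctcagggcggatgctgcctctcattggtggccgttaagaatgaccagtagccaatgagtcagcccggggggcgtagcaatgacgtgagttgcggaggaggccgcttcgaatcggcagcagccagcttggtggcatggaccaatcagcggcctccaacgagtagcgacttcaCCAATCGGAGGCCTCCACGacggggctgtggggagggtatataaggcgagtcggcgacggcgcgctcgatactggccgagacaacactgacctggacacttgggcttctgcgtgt
Hsp90b1, chr10:86705395-86705694, minus strand: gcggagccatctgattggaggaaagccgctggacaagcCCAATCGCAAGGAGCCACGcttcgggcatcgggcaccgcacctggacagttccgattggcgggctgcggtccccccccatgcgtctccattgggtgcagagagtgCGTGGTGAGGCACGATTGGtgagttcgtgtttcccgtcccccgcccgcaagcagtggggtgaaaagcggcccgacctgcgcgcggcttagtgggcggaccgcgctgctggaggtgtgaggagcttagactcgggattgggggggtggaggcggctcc
Dnajc3, chr14:118937682-118937981, plus strand: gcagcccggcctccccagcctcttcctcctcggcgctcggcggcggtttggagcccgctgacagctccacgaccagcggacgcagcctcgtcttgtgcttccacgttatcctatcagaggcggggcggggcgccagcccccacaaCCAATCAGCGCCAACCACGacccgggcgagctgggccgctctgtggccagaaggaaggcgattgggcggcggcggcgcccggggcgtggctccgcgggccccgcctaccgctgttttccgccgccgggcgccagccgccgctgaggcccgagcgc
In these windows the match lay at bases -89 to -72 from the start of Hspe1, 37 to 49 after the start of Hsph1, -46 to -34 in Dnajb6, -65 to -47 in Hspa5 and -105 to -87 in Dnajc3. Hsp90b1 had matches at -212 to -194 and at -107 to -89. Of the listed stress-inducible genes 10 had a window, Hspb1 among them, and 3 (Hspd1, Hspe1 and Hsph1) held the heat-shock element. In the constitutive list 0 of 15 held it, Hspa14 being among the 15, and Dnajb6 is on neither list. Hspb1 and Hspa14 are not among the members and had no values here. No window was found for Hsp90aa1, Hspa8, Hsp90ab1, Hspa9, Cct4 or Hsf1. In the ER list 3 of 10 held the ER stress element. The windows of Bag3, Dnaja1, Dnajb1, Dnajb4, Hspa1a and Hspa1b held no such strict triple, which says only that these letters are not in them.

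Few chaperones made up most of the family's reads. Per kilobase of exon, the highest mean levels over the 9 libraries belonged to Hsp90ab1 (8541), the constitutive cytosolic HSP90, Hsp90b1 (7258), the HSP90 of the ER also called GRP94, Hspa5 (4214), the ER HSP70 called BiP, and Hspa8 (4026), the constitutive cytosolic HSP70. These 4 genes held 40.1% of the summed values of all members, and the 10 with the highest values held 58.6%, with no correction for length. As a measure of the depth behind them, 34 members had a mean value of 1000 or more, 29 between 100 and 1000 and 16 under 100. A read was present in all 9 libraries for 58 members. The sum over members was 0.512% to 0.722% of a library's total value, with thymus replicate 1 lowest and liver replicate 3 highest. The lowest levels per kilobase were those of Hspa1a (0.962), Dnajc6 (1.08), Dnajc12 (4.9), Bag3 (7.23) and Hspa1b (8.24), so the inducible HSP70 pair and the inducible BAG gene were among the 5 lowest members.

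**Figure D1:**
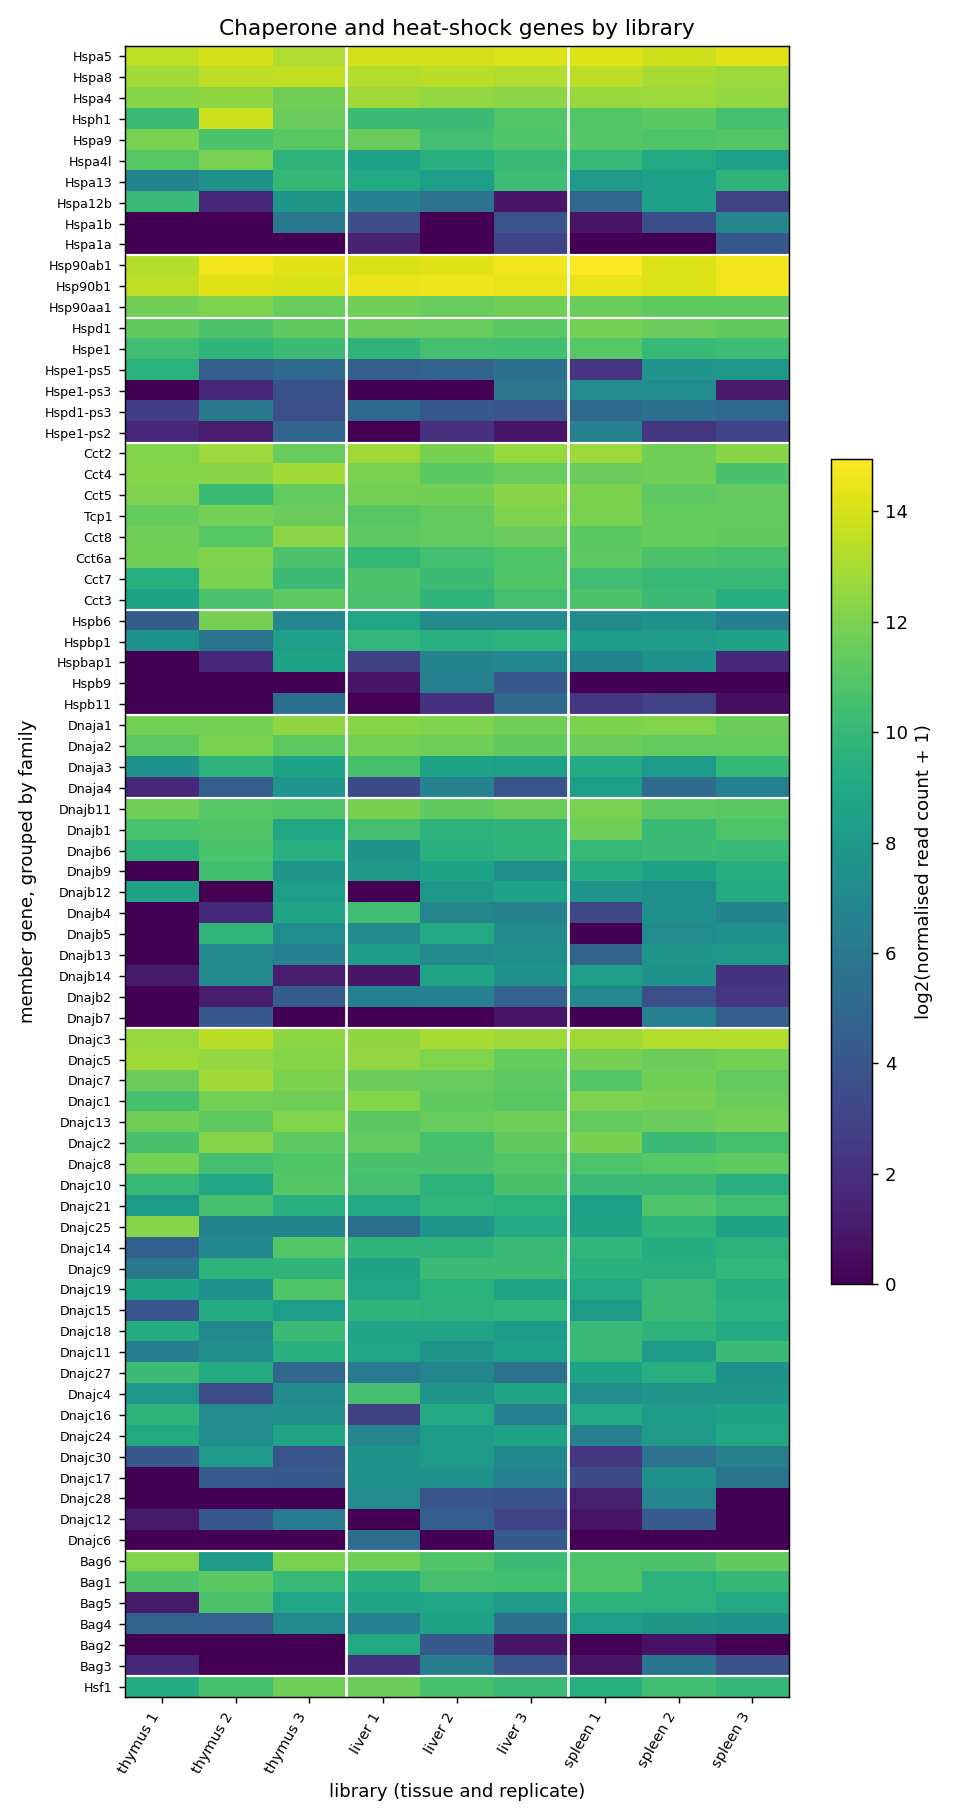
Each row is a member, grouped by family and ordered within it by mean value; columns are the 9 libraries, and colour is log2(normalised read count + 1). The abundant genes keep their colour across tissues, while many rows of low genes in thymus alternate between dark and bright cells.

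Tissue differences were tested with limma-trend on log2(value + 1) over the 13309 genes that reached 1 in 3 or more libraries, and p-values were adjusted by the Benjamini-Hochberg method over all of these genes with a threshold of 0.05. Of the 79 members 76 entered; Bag2, Dnajc6 and Hspb9 did not. No member passed in liver against thymus, where 0.323% of all genes did, in spleen against thymus (0.398% of all genes), in liver against spleen (0.015%) or in the F-test over the 3 tissues (0.346%). The lowest adjusted p (limma-trend) was 0.299 for Hspbp1 in liver against thymus and 0.247 for Cct4 in spleen against thymus, and it was 0.9999 for every member in liver against spleen. Before adjustment, 10 of 76 members (13.2%) had p under 0.05 in liver against thymus beside 11.6% of all genes, 4 (5.26%) in spleen against thymus beside 11.7%, 0 in liver against spleen beside 3.03%, and 4 in the F-test beside 9.95%. On the recovered reads, edgeR called 0 members in each contrast, and DESeq2 called 1, Bag2 in liver against thymus. In simulated data of this size, the limma-trend test called 11.1% of genes changed 4-fold and 30.5% of those changed 8-fold, so a missing call does not show equal levels. Changes were put only into genes above a minimum mean read count, so these rates do not cover the members with the fewest reads.

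Counts of members whose 3 values in 1 tissue lay wholly above or below the 3 of another were near or under the share over all genes. In liver against thymus there were 9 of 76 (11.8%, against 15.3% of all genes): Bag3, Dnajb13, Dnajb2, Dnajc15, Dnajc17, Dnajc28, Hsp90b1 and Hspbp1 with higher values in liver (9.61% of all genes), and Cct4 with lower (5.73%). In spleen against thymus there were 4 (5.26%, against 15.3%): Bag4 and Hspa4 higher (9.29% of all genes), Cct4 and Dnajc5 lower (6.03%). In liver against spleen there were 7 (9.21%, against 12.7%): Dnajc30 and Hspbp1 higher in liver (5.97% of all genes), and Bag5, Dnajb6, Dnajc18, Dnajc27 and Hspe1-ps2 lower (6.77%).

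**Figure D2:**
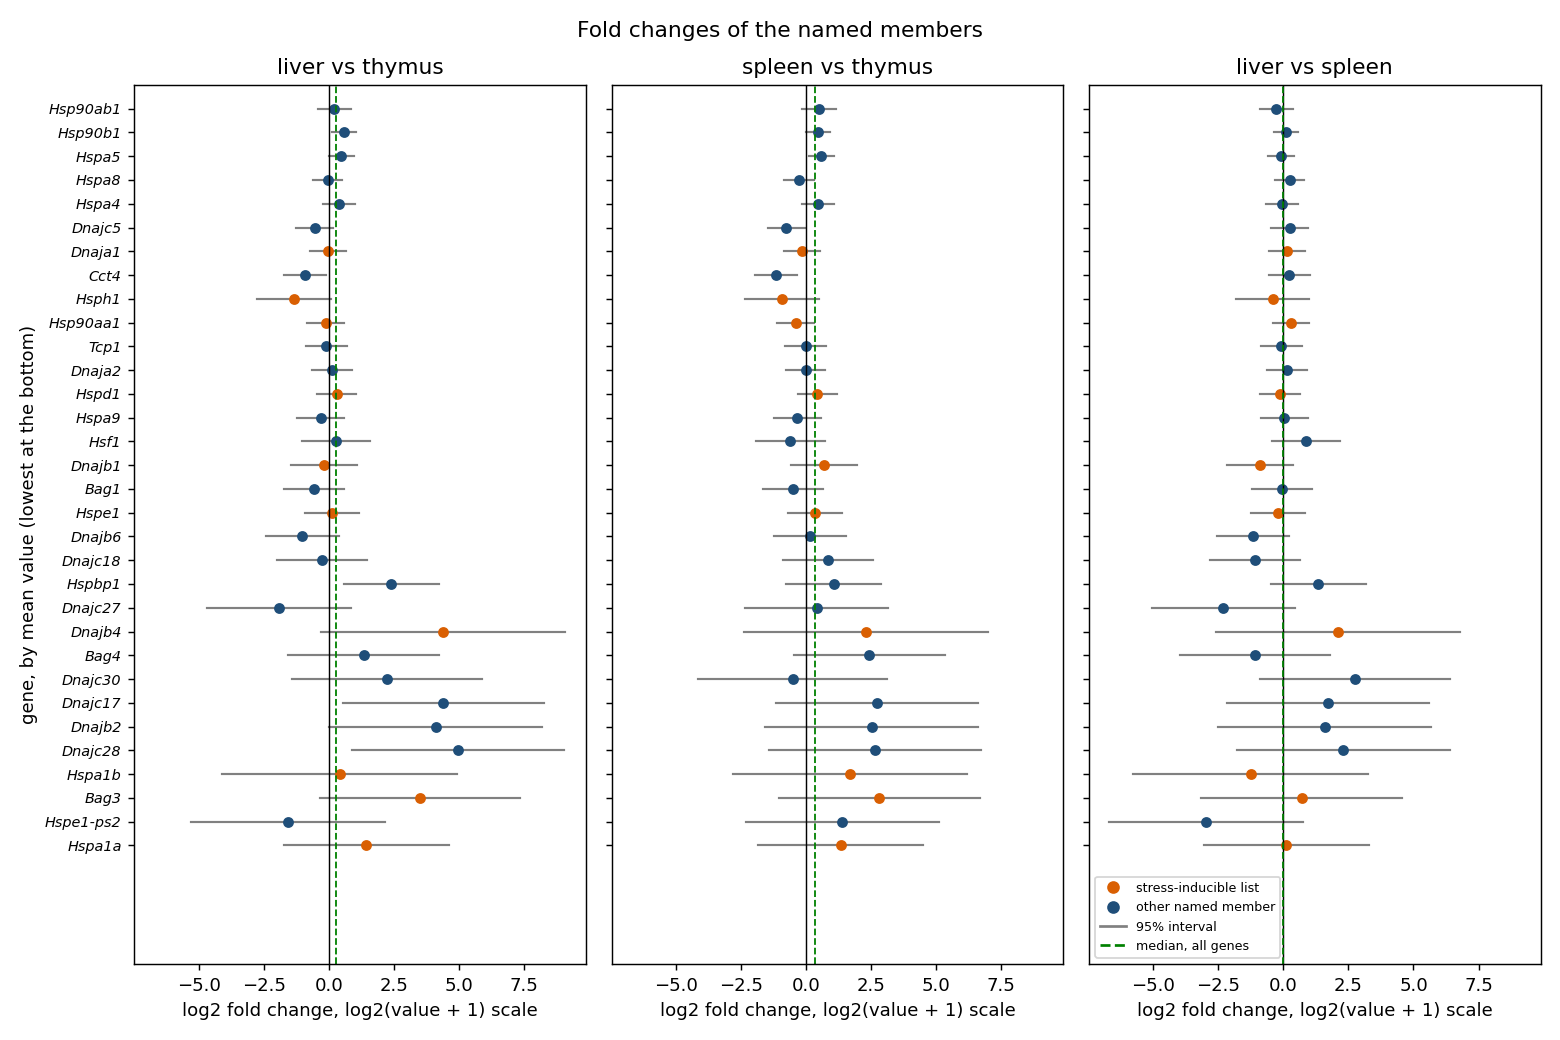
Points are log2 fold changes of the 32 named members on the log2(value + 1) scale and bars their 95% intervals, in 1 panel per contrast; the dashed line is the median over all genes tested. No adjusted p is under 0.247, and intervals widen from abundant genes at the top to rare ones at the bottom.

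Gene positions are those of GENCODE M21 on GRCm38 (mm10). Among the HSP70 proteins, Hspa8 (ENSMUSG00000015656, chr9:40800984-40810087), which folds new proteins and uncoats clathrin vesicles, had normalised read counts of 7504, 11298 and 12492 in thymus, 9684, 10631 and 9357 in liver and 11090.4, 8117 and 6575 in spleen. Its 3 tissues overlapped, and its log2 difference was -0.05 ± 0.27 (SE, n = 3 against 3) for liver against thymus and -0.28 ± 0.27 for spleen against thymus. Transcripts of other gene models share 41.3% of its 75-base stretches, so part of its reads could belong elsewhere. Hspa4, an HSP110-type nucleotide exchange factor, had normalised read counts of 5085, 5688 and 3344 in thymus, 7309, 5877 and 5185 in liver and 6495, 6693 and 5797 in spleen. Every spleen value exceeded every thymus value, and the fitted log2 difference was 0.46 ± 0.29 (adjusted p = 0.556, limma-trend). Hspa9, the mitochondrial HSP70 called mortalin, had 3899, 1683 and 2264 in thymus, 2829, 1459 and 1908 in liver and 2050.2, 1831 and 1954 in spleen, with the highest value in thymus replicate 1 and no separation of tissues.

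The heat-inducible pair Hspa1a (ENSMUSG00000091971, chr17:34969190-34972156) and Hspa1b (ENSMUSG00000090877, chr17:34956436-34959238) was near the detection limit in all tissues. Hspa1a had 0, 0 and 0 reads in thymus, 2, 0 and 1 in liver and 0, 0 and 28 in spleen. Hspa1b had 0, 0 and 50 reads in thymus, 12, 0 and 2 in liver and 1, 16 and 184 in spleen. Reads of either gene above 20 in a library were found in thymus replicate 3 (50 for Hspa1b) and spleen replicate 3 (28 and 184); the other 7 libraries had at most 2 for Hspa1a and 16 for Hspa1b. For Hspa1a, 3 reads is the limit that a count of 0 allows: with that limit set for each thymus library, the liver mean was at or under it and the spleen mean at least 1.58-fold higher, but at or under it without spleen replicate 3. The genes are near-identical copies, and 61.7% of the 75-base stretches of Hspa1a and 55.8% of those of Hspa1b occur in transcripts of other genes, each other included; 38.3% and 44.2% do not. How reads with several matches were counted is not given in the sources used here, so these values are uncertain in absolute terms.

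Hsph1 (ENSMUSG00000029657, chr5:149614287-149636376), the inducible HSP110 whose window is printed above, had 1147, 13883 and 2922 in thymus, 1205, 1219 and 1945 in liver and 1945, 2347 and 1480.5 in spleen. Thymus replicate 2 stood 4.75 times above the next thymus library, thymus replicate 1 was lower than all 6 others outside thymus, and the tissues overlapped. The fitted difference for liver against thymus was -1.34 ± 0.66 on the log2 scale (adjusted p = 0.451, limma-trend). Hspa4l, a further HSP110 gene outside both lists, had 2137, 3906 and 859 in thymus, 374, 717 and 1145 in liver and 1031, 541 and 353 in spleen. Its ratio to Hspa4 per kilobase within a library was 0.123 to 0.33 in thymus, 0.0246 to 0.106 in liver and 0.0292 to 0.0762 in spleen, so that thymus did not overlap either other tissue; the log2 difference of Hspa4l itself was -1.51 ± 0.68 in liver against thymus and -1.73 ± 0.68 in spleen against thymus (adjusted p = 0.41 and 0.333, limma-trend). Hspa4l is described because of its values and was chosen after they were seen.

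For the HSP90 genes, the constitutive form was far more abundant than the inducible one. Hsp90ab1 (ENSMUSG00000023944, chr17:45567775-45573271) had 10183.5, 25591 and 20473 in thymus, 16862, 19774 and 25225 in liver and 31714, 18712 and 25171 in spleen. Hsp90aa1, the inducible cytosolic HSP90, had 3424, 4335 and 2795 in thymus, 3192, 2868 and 3556 in liver and 2999.9, 2454 and 2443 in spleen. Thymus replicate 1 was the lowest library for Hsp90ab1 and spleen replicate 1 the highest, while Hsp90aa1 stayed between 2443 and 4335. Per kilobase, Hsp90aa1 stood at 0.102 to 0.251 of Hsp90ab1 in thymus, 0.105 to 0.141 in liver and 0.0705 to 0.0978 in spleen, the 3 spleen libraries being below the other 6. Other gene models share 53.1% of the 75-base stretches of Hsp90aa1. As a share of the members' summed values, the 3 HSP90 genes made up 17.7% to 24.7% in thymus and 25.5% to 30.3% in liver. In spleen they made up 25.7% to 31.8%, and thymus did not overlap the other tissues. The gap was narrow. In thymus replicate 2, Hsph1 held 13883 of the members' sum of 202852, which lowers the HSP90 share there. The absence of overlap depends on this Hsph1 value. These within-library shares were not tested, and the members and pairs were chosen with results of these data known.

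**Figure D3:**
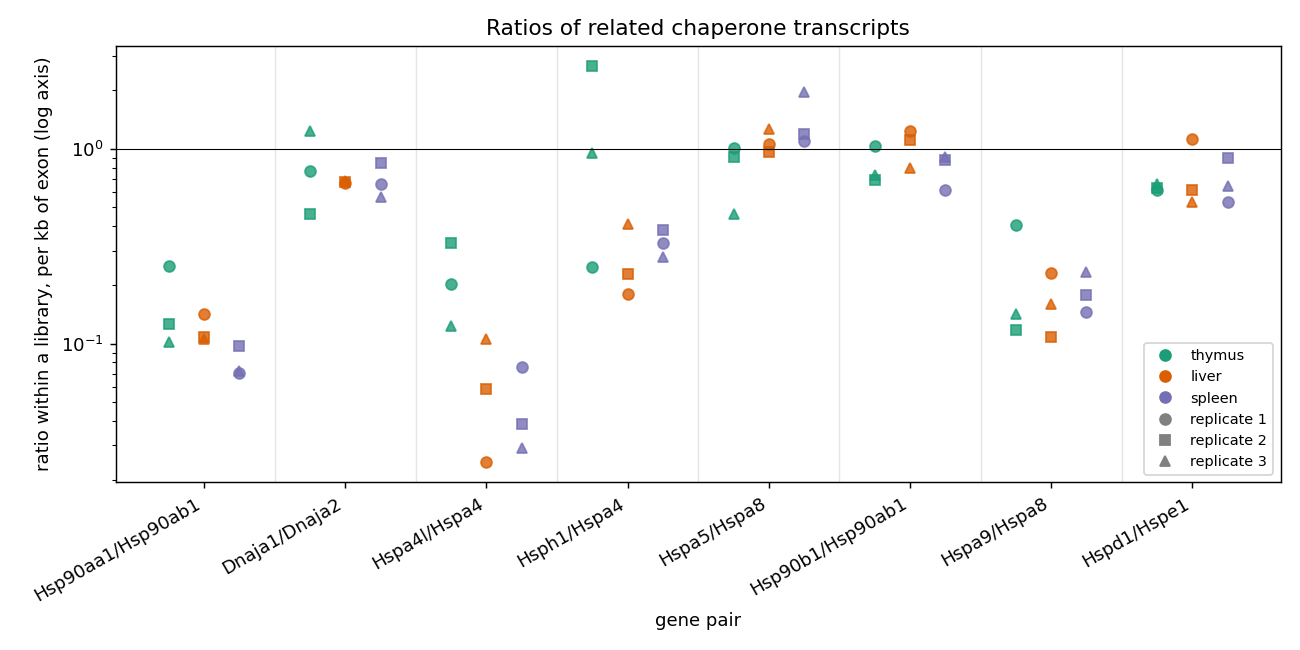
Each point is the ratio of 2 related transcripts per kilobase within 1 library on a log axis, with tissue by colour and replicate by shape. The Hspa4l to Hspa4 ratio is 0.123 to 0.33 in thymus and at most 0.106 elsewhere, and Hsp90aa1 to Hsp90ab1 is at most 0.0978 in spleen and at least 0.102 elsewhere.

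The ER chaperones were abundant in every tissue. Hspa5 (ENSMUSG00000026864, chr2:34771970-34777547) had 11885, 16118.5 and 9090.2 in thymus, 15995, 16053 and 18599 in liver and 19153, 15184 and 20293 in spleen. Hsp90b1 (ENSMUSG00000020048, chr10:86690209-86705509) had 11810.2, 19949.5 and 16814 in thymus, 23325, 24546 and 22499.8 in liver and 21752, 18339 and 25506 in spleen. All 3 liver values of Hsp90b1 exceeded the thymus values, a log2 difference of 0.57 ± 0.22 (adjusted p = 0.32, limma-trend), and spleen overlapped thymus. Hspa5 differed by 0.49 ± 0.23 in liver and 0.59 ± 0.23 in spleen against thymus (adjusted p = 0.435 and 0.333, limma-trend). Dnajc3, the J protein p58IPK and the third member with an ER stress element, had 6055, 10693 and 5395 in thymus, 5785, 8272 and 6965 in liver and 7196, 9662 and 9547 in spleen, with log2 differences of -0.02 ± 0.30 and 0.31 ± 0.30. Over the 11 ER members, 0 passed in any contrast. In liver against thymus 8 had a positive difference (72.7%, beside 59.9% of all genes), with a median of 0.37 (all genes 0.29). In spleen against thymus 10 did (90.9%, beside 61.2%), with a median of 0.55 (all genes 0.33). The summed value of the ER members was 37038 to 54877 in thymus, 55892 to 57167 in liver and 51962 to 63761 in spleen. The liver sums thus lay above thymus and the spleen sums overlapped it.

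No gene of the mitochondrial or cytosolic chaperonins passed the test in any contrast. Hspd1 (HSP60) had 2532, 1747 and 2482 in thymus, 3145, 2882 and 2272 in liver and 3576, 3024 and 2499 in spleen, and its partner Hspe1 (HSP10), read from the shared promoter printed above, had 1309, 886 and 1199.6 in thymus, 893, 1491 and 1363 in liver and 2149, 1071 and 1244 in spleen. Spleen replicate 1 was highest for both. Other gene models share 33.7% of the 75-base stretches of Hspd1 and 3.15% of those of Hspe1. Of 9 mitochondrial members 0 passed, and their median log2 difference from thymus was 0.57 in liver and 0.40 in spleen (all genes 0.29 and 0.33). Tcp1, the first CCT subunit, had 2731, 3707 and 3019.6 in thymus, 2161, 2680.2 and 4336 in liver and 3948, 2792 and 2673 in spleen. Cct4 (ENSMUSG00000007739, chr11:22990519-23003780) had 4869, 4984 and 7506 in thymus, 3970.5, 2340.4 and 2865 in liver and 3001, 3414 and 1615 in spleen. It was the 1 member whose thymus values lay above all values of both other tissues, with log2 differences from thymus of -0.92 ± 0.38 for liver and -1.15 ± 0.38 for spleen (adjusted p = 0.36 and 0.247, limma-trend), so it did not pass. The 8 subunits, which take equal places in the ring, did not have equal transcript levels: within a library the highest exceeded the lowest per kilobase by 3.80-fold in spleen replicate 2 to 13.2-fold in thymus replicate 1. Cct2 was the highest subunit in 6 libraries and Cct5 or Cct4 in the other 3. The median difference of the 8 was 0.02 in liver and -0.24 in spleen against thymus (all genes 0.29 and 0.33). The Cct6a model shares 15.9% of its 75-base stretches with Psph.

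J proteins differed widely in level, from 1.08 per kilobase for Dnajc6 to 1504 for Dnajc3. Dnaja1, a heat-inducible partner of HSP70, had 3618, 3692 and 5786 in thymus, 4905, 4266 and 3404 in liver and 4056, 4367 and 3069.6 in spleen, and its constitutive relative Dnaja2 had 2384, 4014 and 2379 in thymus, 3696, 3181 and 2508 in liver and 3109, 2597 and 2726 in spleen. The ratio of Dnaja1 to Dnaja2 per kilobase was 0.671 to 0.686 in liver, 0.569 to 0.85 in spleen and 0.465 to 1.23 in thymus. Other gene models share 26.2% of the 75-base stretches of Dnaja1 and 0% of those of Dnaja2. Dnajb1 (HSP40), the main inducible J protein, had 1686, 1879 and 498 in thymus, 1508, 804 and 891 in liver and 3254, 1130.3 and 1861 in spleen, with spleen replicate 1 highest and thymus replicate 3 lowest. Dnajb4, also inducible, had 0.021, 2.34 and 419 in thymus, 1308, 109.8 and 92.0 in liver and 8.15, 177 and 102 in spleen, where 0.021 is the deposited value of a gene with 0 reads in thymus replicate 1; 1 library led in both thymus and liver. Dnajb6, which holds back protein aggregation and has a heat-shock element, had 804, 1678 and 728 in thymus, 196, 724 and 843 in liver and 1036, 1210.2 and 1078 in spleen. Its liver values lay below all spleen values, with a log2 difference of -1.16 ± 0.66, and 39.5% of its 75-base stretches occur in other transcripts. Dnajc5, the cysteine string protein of secretory vesicles, had 7337, 5978 and 4922 in thymus, 5818, 4410.4 and 2769 in liver and 3859.5, 3067 and 3696 in spleen, and its spleen values lay below thymus (log2 difference -0.77 ± 0.33, adjusted p = 0.381, limma-trend).

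In liver against thymus, the 4 largest fitted differences belonged to J protein genes, Dnajc28, Dnajc17, Dnajb4 and Dnajb2. Over the 9 libraries Dnajc28, Dnajc17 and Dnajb2 had means under 100. Dnajb4 had a mean of 247, and its liver and thymus values overlapped. Dnajc28 had 0, 0 and 0 reads in thymus, 173, 17 and 2 in liver and 2, 160 and 0 in spleen; against a limit of 3 reads per thymus library, the liver mean was at least 16.8-fold higher (3.89-fold without liver replicate 1) and the spleen mean at least 10.5-fold higher, but at or under the limit without spleen replicate 2. Dnajc17 had 0.021, 19.7 and 17.6 in thymus, 185, 206 and 97.4 in liver and 9.63, 179.6 and 56.3 in spleen, all liver values being above thymus (4.41 ± 1.82, adjusted p = 0.37, limma-trend). Dnajb2 had 0.021, 1.19 and 20.1 in thymus, 93.9, 96.1 and 25.4 in liver and 138, 11.6 and 4.11 in spleen. Dnajc30, a mitochondrial J protein, had 16.8, 267 and 13.8 in thymus, 198, 287 and 127 in liver and 4.42, 46.7 and 91.7 in spleen, and all liver values were above spleen (2.75 ± 1.71). Dnajc27, a small GTPase with a J domain, had 1218, 578 and 32.6 in thymus, 73.0, 118 and 49.7 in liver and 400.4, 696 and 197 in spleen, and liver lay below spleen (-2.32 ± 1.29). Dnajc18 likewise had 611, 134 and 1157 in thymus, 431, 424 and 298 in liver and 1133, 854 and 564 in spleen (-1.11 ± 0.81). In spleen against thymus the largest fitted difference belonged to the pseudogene Hspe1-ps3, and in liver against spleen the 3 largest to Dnajb7, Hspe1-ps3 and Hspe1-ps2. The pseudogene Hspe1-ps3 had 0, 2 and 10 reads in thymus, 0, 0 and 10 in liver and 197, 222 and 2 in spleen, with 3.34 ± 2.19 in spleen against thymus and -3.21 ± 2.19 in liver against spleen, where Dnajb7 had -3.40 ± 1.83 and Hspe1-ps2 -2.97 ± 1.75; adjusted p was 0.573 in the first contrast and 0.9999 in the second (limma-trend). Dnajb7 had no reads in liver, so its fitted value depends on the pseudocount. Hspe1-ps3 and Dnajb7 were chosen after their values were seen. Models of Dnajc30 and Dnajc17 share 22.8% and 13.0% of their 75-base stretches with other genes, and whether counting used the strand is not given in the sources used here.

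Among the BAG and HSP70-binding proteins, Bag1, a nucleotide exchange factor named for binding BCL2, had 1753, 2358 and 1035 in thymus, 647, 1468 and 1381 in liver and 1876, 783 and 1000.2 in spleen. Bag3, the HSF1-driven BAG protein of selective autophagy, had 2, 0 and 0 reads in thymus, 4, 94 and 2 in liver and 1, 79 and 20 in spleen. All liver values were above thymus, from 2 reads in the smallest library. Bag4, which silences death receptors, had 25.8, 25.5 and 142 in thymus, 93.9, 391 and 43.6 in liver and 334, 241 and 195 in spleen. All its spleen values were above thymus (2.43 ± 1.36, adjusted p = 0.502, limma-trend). Another gene model shares 18.8% of the 75-base stretches of Bag4. Hspbp1 (ENSMUSG00000063802, chr7:4660521-4685068), a nucleotide exchange factor that restrains HSP70, had 206, 54.4 and 331 in thymus, 936, 730.4 and 815 in liver and 307, 298 and 377 in spleen. Its liver values lay above all 6 values of the other tissues, with log2 differences of 2.40 ± 0.86 against thymus (95% interval 0.57 to 4.23) and 1.34 ± 0.86 against spleen (95% interval -0.49 to 3.17), and adjusted p of 0.299 and 0.9999 (limma-trend). The hepatocyte marker sums given above were also high in the liver libraries. The pseudogene Hspe1-ps2 had 2, 1 and 22 reads in thymus, 0, 4 and 0 in liver and 121, 6 and 12 in spleen. Hsf1, the factor itself, had 612, 1533 and 3274 in thymus, 3054, 1534 and 1169.6 in liver and 654, 1337 and 1006 in spleen, and its spread within thymus and within liver covered that between tissues.

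**Figure D4:**
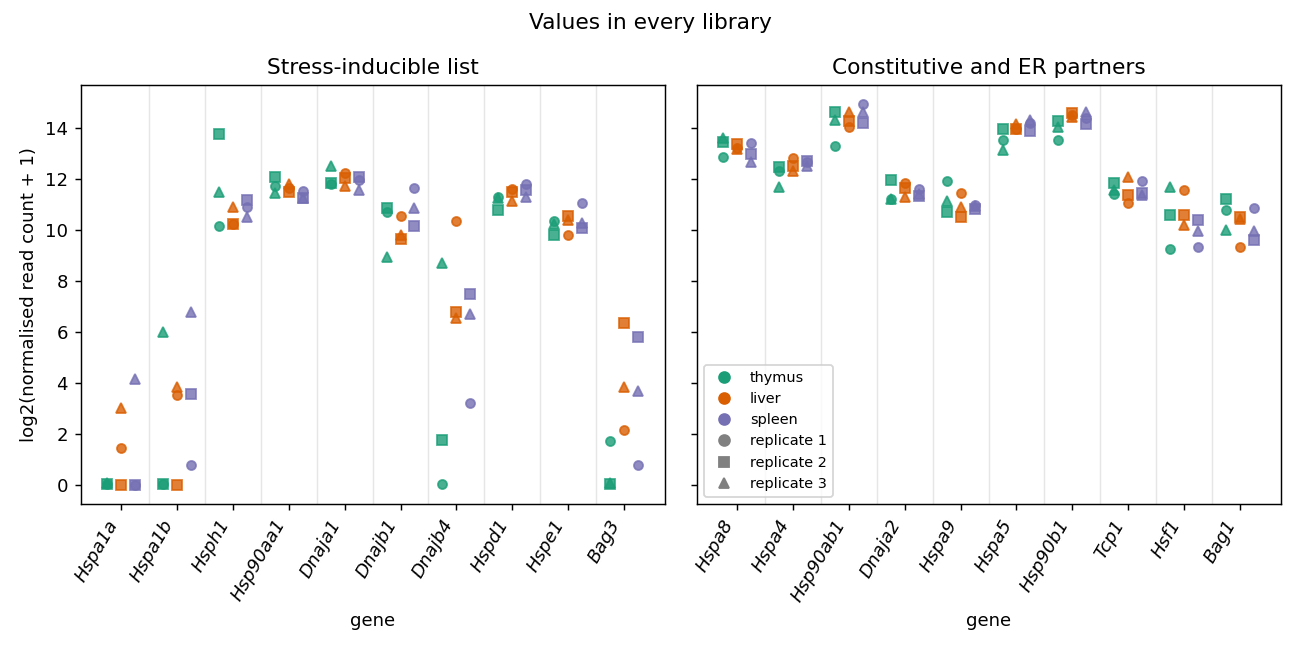
Points are log2(normalised read count + 1) in each library, with tissue by colour and replicate by shape, for the 10 stress-inducible genes and 10 constitutive or ER partners. Hspa1a, Hspa1b, Dnajb4 and Bag3 lie low and scattered, while Hspa8, Hspa4, Hsp90ab1, Hspa5 and Hsp90b1 lie highest.

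Stress-inducible members were set against constitutive ones by their medians. Of 11 stress-inducible genes listed, 10 had values, and of 20 constitutive genes, 19; the lists were chosen with earlier results known. No gene of either list passed in any contrast. The median log2 difference of the inducible list was 0.22 in liver against thymus (0.13 with Hspa1a, which has no thymus read, at its limit), 0.57 in spleen against thymus (0.55) and -0.01 in liver against spleen, where all genes had 0.29, 0.33 and -0.02. The constitutive list had 0.12, -0.09 and 0.10. The inducible median therefore stood 0.09 and 0.66 above the constitutive one in liver and spleen against thymus. It stood 0.11 below it in liver against spleen (-0.11). In spleen against thymus 7 of the 10 inducible genes were positive (70%, beside 61.2% of all genes), among them the low and scattered Bag3, Dnajb4, Hspa1a and Hspa1b. Of the abundant ones, Dnajb1 (0.71), Hspd1 (0.43) and Hspe1 (0.35) were positive, and Hsph1 (-0.93), Hsp90aa1 (-0.40) and Dnaja1 (-0.17) negative. Within libraries, the inducible median minus the constitutive median of log2(value + 1) was -1.51, -1.57 and -1.89 in thymus, -1.28, -1.24 and -1.13 in liver, and -0.18, -1.15 and -0.87 in spleen; gene lengths are not removed, so these values can be set against each other but not against 0. All 3 thymus values were lower than the other 6. Liver and spleen overlapped, and spleen replicate 1 was highest. The pooled standard deviation of this difference over replicates was 0.31. In contrast to the medians, the summed inducible values were 13718 to 26425 in thymus, 13557 to 16171 in liver and 12839 to 17989 in spleen; the highest, thymus replicate 2, owed 13883.0 to Hsph1 alone.

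Replicates differed more in thymus than elsewhere. The median standard deviation of log2(value + 1) over tested members was 1.32 in thymus, 0.57 in liver and 0.52 in spleen, and over all genes 1.34, 0.76 and 0.77. For the 34 members with a mean of at least 1000 it was 0.63, 0.36 and 0.32. In thymus 18 of 76 members had 1 library at 100 or more and over 4 times the next, 4 in liver and 4 in spleen, beside 18.9%, 6.72% and 7.79% of all genes tested; this limit was chosen after values were seen. Among them Dnajc25 had 4767 in thymus replicate 1 and 101.8 and 105.4 in the other 2. Hspb6, a small heat-shock protein best known from muscle, had 3741 in thymus replicate 2 beside 20.2 and 114. Bag2 had 614 reads in liver replicate 1, 20 in liver replicate 2, 1 in spleen replicate 2 and none in the other 6; against a limit of 3 reads per thymus library its liver mean was at least 52.1-fold above thymus, and 2.54-fold without liver replicate 1. These 3 were chosen after their values were seen.

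Partners outside the family were taken from fixed lists, but which of their genes are named was not fixed. Trap1, Cdc37, Herpud1, Atf6, Jun and Nr4a1 are not typical of their lists. Each had the lowest adjusted p (limma-trend) of its list in liver or spleen against thymus. Values without overlap, as given for some of them, occurred in 15.3% of all genes tested in each of these contrasts. Of 26 co-chaperones listed, 25 were tested and 0 passed in any contrast. Trap1, the mitochondrial HSP90, had 2486, 3091 and 2264 in thymus, 1148, 1099 and 558 in liver and 1044, 1125 and 1115 in spleen (log2 difference -1.54 in liver against thymus, adjusted p = 0.214, limma-trend), its thymus values lying above the rest. Cdc37, which loads kinases onto HSP90, had 433, 1382 and 1383 in thymus, 3222, 2466 and 3004 in liver and 5114, 2379 and 1955 in spleen (1.61 in spleen against thymus, adjusted p = 0.238, limma-trend). The 10 regulators of heat-shock and ER stress responses also gave 0 calls. Atf6, the ER stress sensor, had 511, 897 and 1503 in thymus, 1789, 2658 and 1902 in liver and 2565, 2487 and 3326 in spleen (1.65, adjusted p = 0.181, limma-trend, spleen against thymus), and Herpud1, an ER stress target, had 106.5, 167 and 960.2 in thymus, 3183, 1158 and 927 in liver and 1200, 925 and 1666 in spleen; for Atf6 all liver and spleen values exceeded thymus. Hsf2 had 10.1, 1.19 and 1165 in thymus, 69.6, 72.9 and 146 in liver and 347, 412 and 55.7 in spleen. Immediate-early genes, the first to be transcribed on activation, had 0 calls among 9 tested: Jun had 0.021, 1.19 and 6.32 in thymus, 50.4, 288 and 212 in liver and 227, 349 and 406 in spleen and Nr4a1 0.021, 0.027 and 13.8 in thymus, 251, 102 and 79.9 in liver and 884, 816 and 281 in spleen (adjusted p = 0.0507 in spleen against thymus, limma-trend), both near 0 in thymus. Btg2 had 4609.7, 6375 and 2675 in thymus, 1839.9, 2498 and 1545 in liver and 1649, 3041 and 1969 in spleen, with every thymus library above every liver library and overlap with spleen (adjusted p = 0.3 in liver against thymus, limma-trend). Egr1, Zfp36 and Dusp1 were present in all 9 libraries, with overlap between thymus and each other tissue. Fos had at most 36.9 in any library. The list summed to 9563 to 11718 in thymus, 6795 to 7954 in liver, below all thymus sums, and 6690 to 11716 in spleen.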

How the data were processed

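RNA of 9 samples was made into libraries with an ultralow-input kit and sequenced to 75-base reads. Per the submitters' processing notes, Trimmomatic 0.33, TopHat2 2.1.0, HTSeq 0.6.1 and edgeR were used with build mm10; their settings are not given in the sources used here. The deposited table holds normalised read counts, treated as a signal per gene scaled by the authors; the scaling method is not given in the sources used here. Low values fall on equal steps, from which whole reads were recovered: 92.6% of 15737 values of 1 to 20 reads came within 0.1 of a whole number, 68.7% in liver replicate 3. A value above 0 can stand for 0 reads. In liver replicate 3, where this offset was largest, its median was 0.763, and Hspa12b had 0.882 there.

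Tests used the limma package, version 3.58.1 (R 4.3.3), after adding a pseudocount of 1 and taking log2, all 9 samples in 1 fit with tissue as the term, over genes reaching 1 in 3 or more samples, with Benjamini-Hochberg adjustment; fold changes on this scale understate low genes. On recovered reads, edgeR 4.0.16 called 17, 32 and 2 genes (liver against thymus, spleen against thymus, liver against spleen) and DESeq2 1.42.0 was a further alternative. Since the values are no raw counts, the limma test planned for normalised values was used. The test of liver against thymus was checked on simulated data (5 tables of 13625 genes). These used each gene's mean level and spread estimated from all 9 libraries, with changes put into liver, and only for genes above a minimum mean read count. The same spread per gene served every tissue, so the wider spread of thymus was not carried over. Values per kilobase use exon lengths of GENCODE M21; shared stretches are 75-base words found in other genes' transcripts there.

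Members and lists were chosen with earlier results of these data known. Named genes are members past the threshold, all stress-inducible genes, 10 fixed partners, and up to 4 non-overlapping members per direction and contrast with a tissue mean of at least 10. Intervals and the limit of 3 reads cover counting error or the spread between these samples only. Fold limits against a tissue without reads use 3 reads per library of that tissue.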

Additional observations from a re-analysis of the deposited data

How the results depend on the processing

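The counts of called members were recomputed under 25 alternatives (24 for the test over the 3 tissues): pseudocounts, filters, scaling, the 6 samples of a contrast, array weights, terms for libraries numbered 2, edgeR and DESeq2 on recovered reads, and each library left out. In liver against thymus the count was 0 in 23 of them, 1 with DESeq2 (Bag2, adjusted p = 0.0321, and 0.0321 to 0.552 over the 3 alternatives that tested it) and 0 to 1 when leaving out 1 library, the 1 being Dnajc14 without thymus replicate 3 (adjusted p = 0.0433, limma-trend, and 0.0433 to 0.932 over 24 alternatives); the other contrasts and the test over 3 tissues gave 0 in every alternative. Among all genes, DESeq2 called 489, 537 and 27 in liver against thymus, spleen against thymus and liver against spleen, edgeR 17, 32 and 2, and limma-trend 43, 53 and 2; without thymus replicate 3, 151 were called in liver against thymus. edgeR and DESeq2 moved the median of all genes in that contrast from 0.29 to -0.03 and -0.02. For the 32 named members, all 2361 values stayed without a call, and 35 of 96 uncalled differences changed sign in at least 1 alternative. The signs given for Hsp90b1, Hspbp1, Dnajc17 and Bag3 in liver against thymus, Hspa4, Bag4 and Dnajc5 in spleen against thymus, and Hspa5 and Cct4 in both held in all 25; adjusted p ran from 0.0608 to 0.621 for Hspbp1 and, in spleen against thymus, from 0.0744 to 0.585 for Cct4. The inducible minus constitutive difference ran from -0.08 (pseudocount 5) to 0.36 (without thymus replicate 1) in liver against thymus, 0.51 to 0.96 in spleen against thymus and -0.41 to -0.01 in liver against spleen. With the replicate number as a block, 0 members were called in any contrast by limma-trend or edgeR; same-numbered libraries correlated at -0.00073 to 0.0891 in their deviations from the tissue means, 8 of 9 above 0 beside 5 of 18 pairs of other numbers, and 4 of 9 libraries correlated best with their own number in both other tissues. No correlation passed 0.1, so the numbers were not taken as pairs, which does not show that no samples are paired; the libraries numbered 2 share high Xist. Liver replicate 3, at 3880866 reads, limits what can be said of genes with a few reads.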

Other observations

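Several rare members had reads in few libraries; of those below, Hspb9 and Dnajc6 entered no test. Hspb9, a small heat-shock protein gene, had 1, 110 and 3 reads in liver and 0 in all 6 thymus and spleen libraries, which against a limit of 3 reads per library gives a liver mean at least 10.6-fold above thymus and 18.4-fold above spleen (2.59-fold and 4.48-fold without liver replicate 2). Dnajc6, which encodes auxilin, the J protein that uncoats clathrin vesicles in neurons, had 45, 0 and 3 reads in liver and 0 elsewhere, at least 5.33-fold above thymus and 9.24-fold above spleen (2.49-fold and 4.32-fold without liver replicate 1). Dnajb7 had 15 reads in thymus replicate 2, 129 and 36 in spleen replicates 2 and 3, and 0 in the other 6, so the liver mean lay at least 4.74-fold below spleen, and 1.39-fold without spleen replicate 2 (adjusted p = 0.9999, limma-trend). These values without the highest library were added after seeing the data. The pseudogene Hspe1-ps5 had a value of 755 in thymus replicate 1, 22 and 33.9 in the other thymus libraries and 224 and 249.0 in spleen replicates 2 and 3. Dnajb12, an ER-membrane J protein, had 347 and 255 reads in thymus replicates 1 and 3 and 0 in replicate 2, and 0, 287 and 67 in liver. All were chosen after their values were seen.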
